A study of Mus musculus with 24 samples.

Results

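The comparison described here is that of 7 mildly hydronephrotic kidneys of homozygous *megabladder* (mgb-/-) mice with 6 kidneys of mgb+/+ controls, chosen by the grade and genotype in the sample labels, and together 13 of the 24 kidneys of the series. All 13 came from male animals that were age-matched and, at the ages given in the study's methods, juveniles shortly past weaning. Each sample was RNA of 1 whole kidney that had been snap frozen, and it was hybridized to 1 single-colour Agilent array. The mgb allele is a transgene insertion that disrupts *Myocd*, the coactivator of smooth muscle transcription, so homozygous males form a bladder without a working muscle layer and their urine backs up into the kidneys from before birth. Hydronephrosis was graded by ultrasound on how much renal parenchyma remained, and the mild grade is the one with the most parenchyma. The other 11 kidneys were mgb-/- as well, 5 of moderate and 6 of severe grade, and are used below only for reference. No mgb-/- kidney without hydronephrosis was analysed here, so genotype and hydronephrosis cannot be told apart. Nothing in the labels tells if a mouse gave 1 kidney or a pair, so p-values measure only the spread between these kidneys.

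Pressure and stretch act on every compartment of a hydronephrotic kidney. Immediate early genes are transcribed within minutes of a stimulus without new protein synthesis. They encode transcription factors of the AP-1, Egr and Nr4a families together with phosphatases, RNA-binding proteins and kinases that switch the response off again. The mouse proximal tubule is also known for strong sex differences, since androgen maintains a set of transporters, cytochromes P450 and conjugating enzymes in males, while females express other members of the same families.

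Levels are given as log2 of the processed signal relative to the 75th percentile of the same array, so a level of 0 is the brightness of the 75th percentile spot and a difference of 1 is a 2-fold change. Levels of different genes come from different probes and are not compared. A gene was called when the limma fit across 27959 genes and all 24 kidneys gave a change of 2-fold or more with an adjusted p under 0.05, and "rose" and "fell" are used only for called genes. Between 58.8% and 65.8% of probes stood well above background on the control arrays and between 61.4% and 64.9% on the mild arrays. Kidney markers were bright in every sample: *Umod* (uromodulin, thick ascending limb) lay between 8.13 and 8.45 in controls and between 8.02 and 8.62 in mild kidneys, and *Lrp2* (megalin, proximal tubule) between 7.10 and 7.50 and between 7.11 and 7.47.

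Markers of other tissues stood high in several mild kidneys. *Cyp11a1*, the first enzyme of steroid hormone synthesis and a marker of the adrenal gland, lay between -8.12 and -7.55 in the controls and reached 3.81 in mild replicate 4. Of the 9 adrenal markers tested, none was called, but 7 to 9 lay above every control in mild replicates 2, 4, 5, 6 and 7, against 5 in replicate 1 (with 2 below every control) and 2 in replicate 3. Their summed signal, in multiples of the 75th percentile, was between 0.573 and 0.893 in controls, 269 in mild replicate 4, 6.61 in replicate 6, 4.62 in replicate 2, 3.01 in replicate 5, 1.46 in replicate 7, 1.02 in replicate 1 and 0.899 in replicate 3. Of 11 hepatocyte markers, 7 or 8 lay above every control in mild replicates 2, 5, 6 and 7, and 1 or 2 lay below every control. The summed signal of the 11 went the other way in these kidneys, at 103 to 131 against 165 to 214 in controls. Among the 11 markers *Alb* (albumin) lay between -3.25 and -2.54 in controls and between -4.38 and 2.67 in mild kidneys, and was not called (adjusted p = 0.354, limma). *Ahsg* (fetuin-A) was above background in no control and in 5 of 7 mild kidneys and was at least 21.5-fold higher in mild kidneys (adjusted p = 0.0244, limma). Of 8 adipocyte markers, all 8 lay above every control in mild replicates 2 and 4, while 7 lay below every control in replicate 1, 2 in replicate 5 and 1 in replicate 6. The part of other tissues in the results below was not tested, but mild replicates 1 and 3, whose hepatocyte markers averaged -0.91 and -0.55 against -0.88 to -0.29 in controls, are given beside the results they bear on.

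*Myocd*, the disrupted gene, was read first as a check of the labels. It lay at -4.81, -4.32 and -2.29 in control kidneys (lowest, median, highest) and at -4.91, -3.88 and -3.27 in mild kidneys. The groups overlapped, and the highest value was a control, replicate 6. The difference was 0.06 (SE 0.35, 95% confidence interval -0.67 to 0.79, adjusted p = 0.959, limma), and its sign changed with the scaling. Whether the probe lies inside the disrupted part is not given in the sources used here, so the gene did not settle the labels.

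Mild kidneys differed from controls at 618 genes, of which 321 were higher (1.15% of the genes tested) and 297 lower (1.06%). Gene symbols were known for 231 of the higher and 206 of the lower genes. Levels of the groups did not overlap for 212 of the higher and 238 of the lower genes, against 9.17% of all genes tested. Calls and overlap rest on the same values, so these counts add no support to the calls. The shares called higher, called lower and not overlapping among all genes are the base for the list counts below. Counts of members above or below every control in a single kidney have no such base here, since that share over all genes is not given. With each array scaled by its median instead, 178 genes were higher and 345 lower. Arrays were spread over 3 slides with 2 controls each, and with the slide as a block 299 genes were higher and 249 lower. Without mild replicate 4 the fit called 384 genes higher and 358 lower, and 305 and 287 of these were also called with it. With the 5 mild kidneys of high adrenal markers left out, a choice made after seeing the data, only replicates 1 and 3 remained: 4 genes were higher (*Ccdc50*, *Cebpd*, *Cldn16* and *Rasd1*) and 0 lower by limma, with 621 and 555 at an unadjusted p under 0.05 and at least 2-fold. All 321 higher genes stayed above 0 in these 2 kidneys, 280 of them by at least 2-fold, and all 297 lower genes stayed below 0, 288 of them by at least 2-fold. Both kidneys had contributed to the calls. In bulk tissue, fewer cells of a type and less RNA per cell cannot be told apart.

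Among called genes above background on every mild array, the largest rise was that of *Serpina6*, which encodes corticosteroid-binding globulin, the plasma carrier of glucocorticoids. Its level was 1.57, 2.54 and 3.99 in controls and 4.56, 7.90 and 8.08 in mild kidneys. All 7 mild kidneys lay above all 6 controls, 6 of them between 7.70 and 8.08, while mild replicate 4 was close to the highest control. The difference was 4.91 (SE 0.80, adjusted p = 0.0015, limma), and within the slides it was 4.15, 4.59 and 6.30. Mild replicates 1 and 3, without raised hepatocyte markers, had 7.98 and 8.08. *Hpd*, a tyrosine-degrading dioxygenase, followed with 0.21, 0.31 and 0.69 in controls and 2.65, 4.78 and 5.62 in mild kidneys. Here too every mild kidney lay above every control, and replicate 4 was the lowest. *Hpd* rose by 4.26 (SE 0.80, adjusted p = 0.00404, limma), and replicates 1 and 3 had 4.10 and 5.49. *Mro*, the maestro gene, rose by 4.12 (SE 0.80, adjusted p = 0.00545, limma), although at -4.57 mild replicate 4 lay inside the range of the controls, which ran from -5.20 to -4.29.

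*Grem1*, an antagonist of bone morphogenetic proteins, was well above background in only 2 of 6 controls and in all 7 mild kidneys. Its levels were -7.64, -6.40 and -1.82 in controls and -2.94, -2.41 and -1.54 in mild kidneys. Control replicate 5 overlapped with the mild group. The difference was 3.41 (SE 0.65, adjusted p = 0.00465, limma). The remaining genes among the 10 largest rises were 5 immediate early genes (*Egr2*, *Nr4a1*, *Egr1*, *Fos* and *Atf3*) and the prolactin receptor *Prlr*, described below.

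An anion transporter, a glutathione transferase and an acyl-CoA synthetase led the falls. *Slco1a1*, an organic anion transporter, lay at 2.56, 3.31 and 3.59 in controls and at -4.82, -3.64 and 0.98 in mild kidneys. No mild kidney reached the control range, and replicate 4 stood between the other mild kidneys and the controls. *Slco1a1* fell by 6.40 (SE 1.30, adjusted p = 0.00705, limma), with -5.70, -6.66 and -7.24 within the slides. *Gstp3*, a glutathione transferase, lay between 1.17 and 1.73 in controls and at -5.93, -5.18 and -0.85 in mild kidneys, where 4 of 7 arrays had it above background. It fell by 5.87 (SE 1.22, adjusted p = 0.00808, limma). *Acsm3*, a medium-chain acyl-CoA synthetase, fell from 6.05, 6.68 and 7.00 to -1.66, 0.29 and 4.70, by 5.86 (SE 1.24, adjusted p = 0.00865, limma).

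3 further genes fell to levels that were not above background in some or all mild kidneys. *Ces1g*, a carboxylesterase, lay between -0.57 and 0.45 in controls and between -6.61 and -4.02 in mild kidneys, and fell by 5.31 (SE 1.19, adjusted p = 0.0114, limma). In *Ces1g* replicate 4 stood among the other mild kidneys. *Ctxn3*, a small membrane protein of kidney and brain, lay between -1.50 and -0.67 in controls and was above background in 1 of 7 mild kidneys, replicate 4 at -2.35. Its fitted fall of 5.02 (SE 0.97, adjusted p = 0.00502, limma) rests mostly on mild signal that was not above background. *Rhox6*, an X-linked homeobox gene, was above background in every control and in no mild kidney, and was at least 4.08-fold lower (adjusted p = 0.00323, limma).

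**Figure D1:**
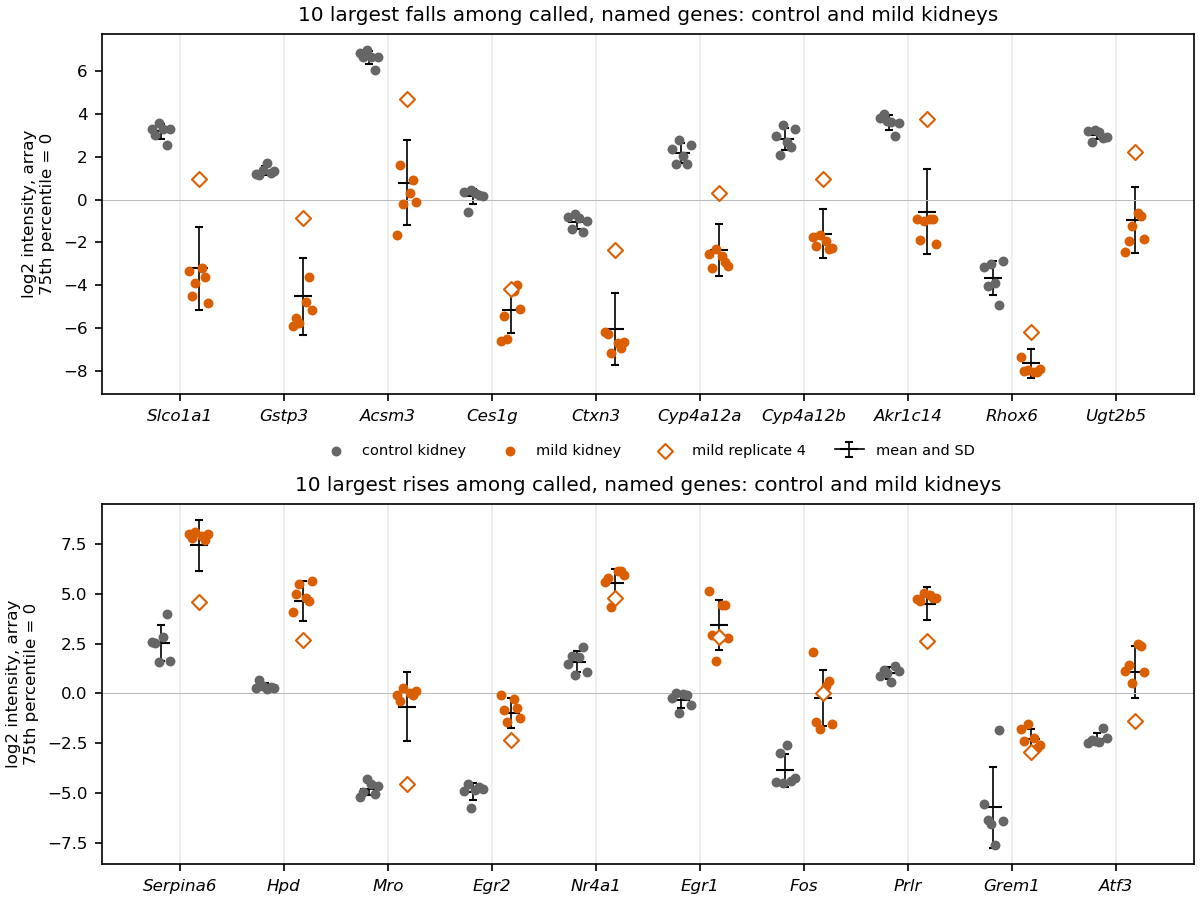
Levels (log2 relative to each array's 75th percentile) of the 10 called genes with the largest falls and the 10 with the largest rises among those with a symbol and above background on every array of the brighter group. Grey points are controls, orange points mild kidneys, the open diamond is mild replicate 4, and black marks are the mean and SD of a group; for *Serpina6*, 6 mild kidneys lie at 7.70 or more and the controls at 3.99 or less, and replicate 4 is the mild kidney nearest to the controls in 9 of the 10 falls, *Ces1g* being the exception.

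Immediate early genes formed the group with the most members called by count. The sex-biased lists described below had larger shares called (10 of 12 male-biased and 6 of 6 female-biased genes). Of 24 listed transcription factors 22 were tested, and 14 rose while 0 fell, against 1.15% of all genes called higher. All 22 differences were above 0, with a median of 1.52 against 0.01 over all genes. 14 of the 22 did not overlap between groups, against 9.17% of all genes tested. The mean level of the 22 genes was between -0.79 and -0.52 in controls and between 0.45 and 1.84 in mild kidneys, so the groups did not overlap. Replicate 4 had the lowest mean of the mild kidneys at 0.45 and replicate 3 the next at 0.77. Of 26 feedback and effector genes, 14 rose and 0 fell, all 26 differences were above 0, and the median was 1.51. Without mild replicate 4, 15 of the 22 and 15 of the 26 were called. In mild replicates 1 and 3 alone, the medians of the 2 lists were 1.63 and 1.36, and none was called.

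The promoters of called members are shown because these genes are textbook targets of serum response factor, which binds CArG boxes (CC, a run of A or T bases, GG), and of CREB, which binds the cAMP response element TGACGTCA. Each line gives the 250 bases before a RefSeq transcription start (GRCm38.p6), written 5′ to 3′ on the strand of the gene, with the motif in capitals. *Egr2* (chr10:67537316-67537565, plus strand, 1 of 5 listed starts) has a CArG box 72 to 63 bases before the start. *Dusp5* (chr19:53528895-53529144, plus strand) has a pair of adjoining CArG boxes between 82 and 63 bases before the start. *Btg2* (chr1:134079156-134079405, minus strand) and *Dusp1* (chr17:26508473-26508722, minus strand) each have 1 cAMP response element, 166 to 159 and 143 to 136 bases before the start.
Egr2: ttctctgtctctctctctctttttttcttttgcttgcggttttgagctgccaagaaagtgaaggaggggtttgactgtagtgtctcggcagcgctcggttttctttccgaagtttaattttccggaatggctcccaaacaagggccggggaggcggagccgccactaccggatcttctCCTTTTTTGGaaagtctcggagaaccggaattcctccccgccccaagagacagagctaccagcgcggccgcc
Dusp5: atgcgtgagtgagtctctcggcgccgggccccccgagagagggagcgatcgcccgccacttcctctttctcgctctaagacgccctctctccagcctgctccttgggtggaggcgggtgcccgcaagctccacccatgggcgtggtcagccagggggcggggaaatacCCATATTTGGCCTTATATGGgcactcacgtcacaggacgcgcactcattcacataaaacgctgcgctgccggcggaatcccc
Btg2: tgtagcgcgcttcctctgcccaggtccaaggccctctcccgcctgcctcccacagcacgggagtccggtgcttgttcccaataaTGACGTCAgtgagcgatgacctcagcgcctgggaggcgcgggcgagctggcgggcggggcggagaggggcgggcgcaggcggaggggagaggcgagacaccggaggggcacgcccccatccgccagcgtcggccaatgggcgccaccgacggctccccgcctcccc
Dusp1: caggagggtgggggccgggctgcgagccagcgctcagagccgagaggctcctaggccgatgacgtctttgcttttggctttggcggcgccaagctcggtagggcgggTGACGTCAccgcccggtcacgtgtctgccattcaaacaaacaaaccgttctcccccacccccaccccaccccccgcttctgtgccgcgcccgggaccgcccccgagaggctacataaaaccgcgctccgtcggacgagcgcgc

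Promoters were given for 36 of the 50 listed immediate early genes and for 24 of the 28 called. *Egr1* was among those without one, so it could not be searched. Each promoter shown above holds a motif, and these do not stand for the 24. On either strand of any listed start, a CArG box was present in 3 of the 24 (12.5%; *Egr2*, *Dusp5* and *Zfp36*) against 1.62% of the promoters of 27025 genes. TGACGTCA was present in 3 of the 24 (12.5%; *Btg2*, *Dusp1* and *Maff*) against 1.77%. The AP-1 motif TGANTCA was present in 1 of the 24 (4.17%; *Csrnp1*) against 7.82%. A match describes the letters of this window and is not a binding site.

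*Egr2*, a zinc finger transcription factor, had the largest change of the group. It lay at -5.77, -4.85 and -4.58 in controls and at -2.35, -0.83 and -0.07 in mild kidneys. The groups were far apart, with replicate 4 the lowest mild kidney. *Egr2* rose by 3.95 (SE 0.49, adjusted p = 0.000171, limma), with 3.67, 4.09 and 4.21 within the slides.

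*Nr4a1*, an orphan nuclear receptor, lay at 0.94, 1.66 and 2.34 in controls and at 4.34, 5.77 and 6.14 in mild kidneys. It rose by 3.93 (SE 0.40, adjusted p = 1.32e-05, limma), and here replicate 3, not replicate 4, was the lowest mild kidney. *Egr1* rose from -1.01, -0.15 and -0.01 to 1.61, 2.92 and 5.12, by 3.76 (SE 0.54, adjusted p = 0.000637, limma). *Fos*, the partner of Jun proteins in AP-1, rose from -4.49, -4.33 and -2.59 to -1.80, 0.01 and 2.09, by 3.62 (SE 0.64, adjusted p = 0.0027, limma). Groups did not overlap in any of the 3.

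Other AP-1 and related factors rose by less. *Atf3*, a stress-induced repressor, rose by 3.37 (SE 0.54, adjusted p = 0.00138, limma), from -2.50, -2.36 and -1.77 to -1.41, 1.13 and 2.45. *Jun* rose by 1.65 (SE 0.26, adjusted p = 0.00115, limma), from 3.27, 3.39 and 3.63 to 4.35, 4.73 and 5.85. Each of the 7 mild kidneys lay above every control for both genes. The other called factors were *Maff* (2.58), *Fosb* (2.44), *Nr4a2* (2.42), *Junb* (1.90), *Csrnp1* (1.82), *Fosl2* (1.39), *Klf6* (1.22) and *Bhlhe40* (1.19), the last with overlapping groups.

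The 8 factors that were not called included growth-related and Krüppel-like members. *Jund* (0.66, adjusted p = 0.00923) and *Klf2* (0.79, adjusted p = 0.000486) passed the limma threshold but not the 2-fold minimum. *Klf10* (1.12, adjusted p = 0.257), *Ier2* (1.12, adjusted p = 0.135), *Fosl1* (1.11, adjusted p = 0.4) and *Myc* (0.55, adjusted p = 0.354) passed neither or only the fold minimum in the limma fit.

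Among the effectors, *Ptgs2* (cyclooxygenase 2, prostaglandin synthesis) lay at -5.97, -5.62 and -4.69 in controls, above background in 4 of 6, and at -2.77, -2.29 and -1.70 in mild kidneys. It rose by 3.12 (SE 0.52, adjusted p = 0.0019, limma), and all mild kidneys lay above all controls. *Btg2*, an antiproliferative gene, rose by 2.29 (SE 0.29, adjusted p = 0.00027, limma), from -0.91, -0.46 and -0.27 to 0.88, 1.36 and 2.70.

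Among the phosphatases that inactivate MAP kinases, 2 were called. *Dusp1* rose by 1.67 (SE 0.22, adjusted p = 0.000429, limma), from 0.68, 1.31 and 2.40 to 2.61, 3.00 and 3.38. *Dusp5*, above background in 1 of 6 controls and all mild kidneys, rose by a fitted 1.62 (SE 0.36, adjusted p = 0.0112, limma), which rests mostly on control signal that was not above background. *Dusp4* (0.42) and *Dusp6* (0.45), whose difference from the called members was not tested, and the Sprouty inhibitors *Spry2* (0.54) and *Spry4* (0.39), were not called. The other called effectors were *Plk3* (2.92), *Cdkn1a* (2.25; the p21 cell cycle inhibitor), *Gem* (1.96), *Arc* (1.84), *Sgk1* (1.70), *Zfp36* (1.69; an RNA-binding protein that destabilizes cytokine messages), *Nfkbia* (1.55), *Ier3* (1.53), *Gadd45g* (1.48) and *Gadd45b* (1.32). *Plk3* and *Zfp36* overlapped between groups. The matricellular genes *Ccn1* (1.34, adjusted p = 0.102) and *Ccn2* (0.75, adjusted p = 0.0796) were not called.

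Compared with the same control kidneys, the median change of the 22 transcription factors was 1.10 in moderate and 1.61 in severe kidneys, and that of the 26 effectors 0.89 and 1.26. The grades share their controls, so these values are not independent. None of these genes was called between severe and mild or between moderate and mild kidneys.

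**Figure D2:**
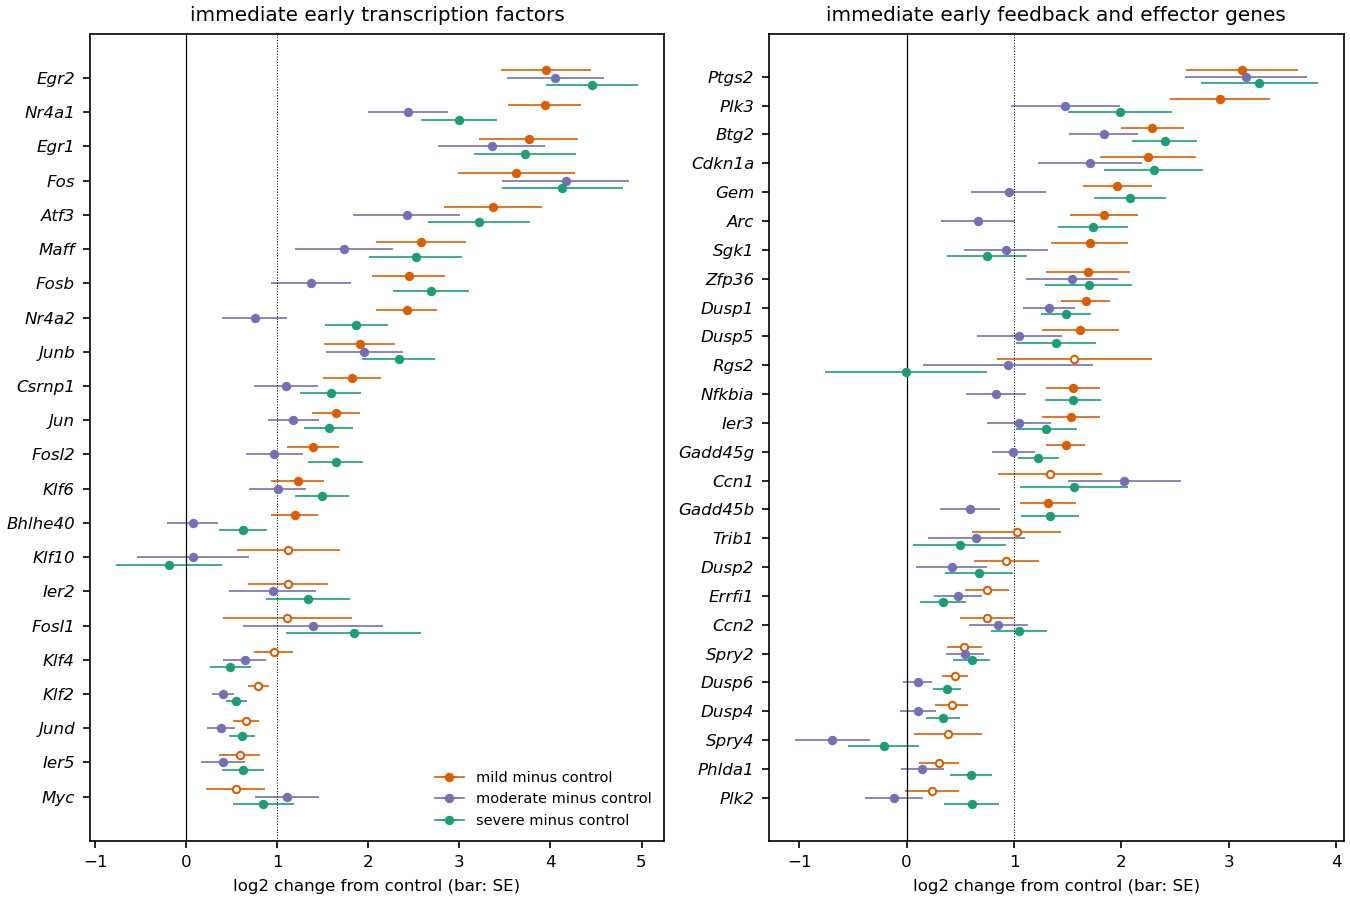
Change from control (log2) of immediate early genes in mild, moderate and severe kidneys, with SE bars. Open circles mark genes not called in mild against control, and the dotted line at 1 is a 2-fold change; *Egr2*, *Nr4a1*, *Egr1* and *Fos* lie at 3.62 or more in mild kidneys, and every point of the mild kidneys lies above 0.

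Genes that differ between the sexes in mouse kidney changed in these male mice, male-biased genes falling and female-biased genes rising. The lists of 12 male-biased and 6 female-biased genes were drawn up in the study from these same kidneys, so their direction is not independent evidence. Of the 12 male-biased genes 10 fell, against 1.06% of all genes, 0 rose, and the median change was -3.72. All 6 female-biased genes rose, against 1.15% of all genes, with a median of 2.72. Of the male-biased genes 11 did not overlap between groups, against 9.17% of all genes tested. The mean level of the male-biased genes was between 3.61 and 4.29 in controls and between -0.73 and 0.28 in 6 mild kidneys, and 2.90 in mild replicate 4. For the female-biased genes it was between 0.56 and 1.49 in controls, between 3.81 and 4.22 in 6 mild kidneys and 2.45 in replicate 4. Mild replicate 4 thus lay between the groups in both lists, and it was also the kidney with the highest adrenal markers, whose part in this position was not tested. Without it, 11 of 12 male-biased genes were called lower. With mild replicates 1 and 3 alone, the medians were -4.43 and 3.18, and none was called.

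**Figure D3:**
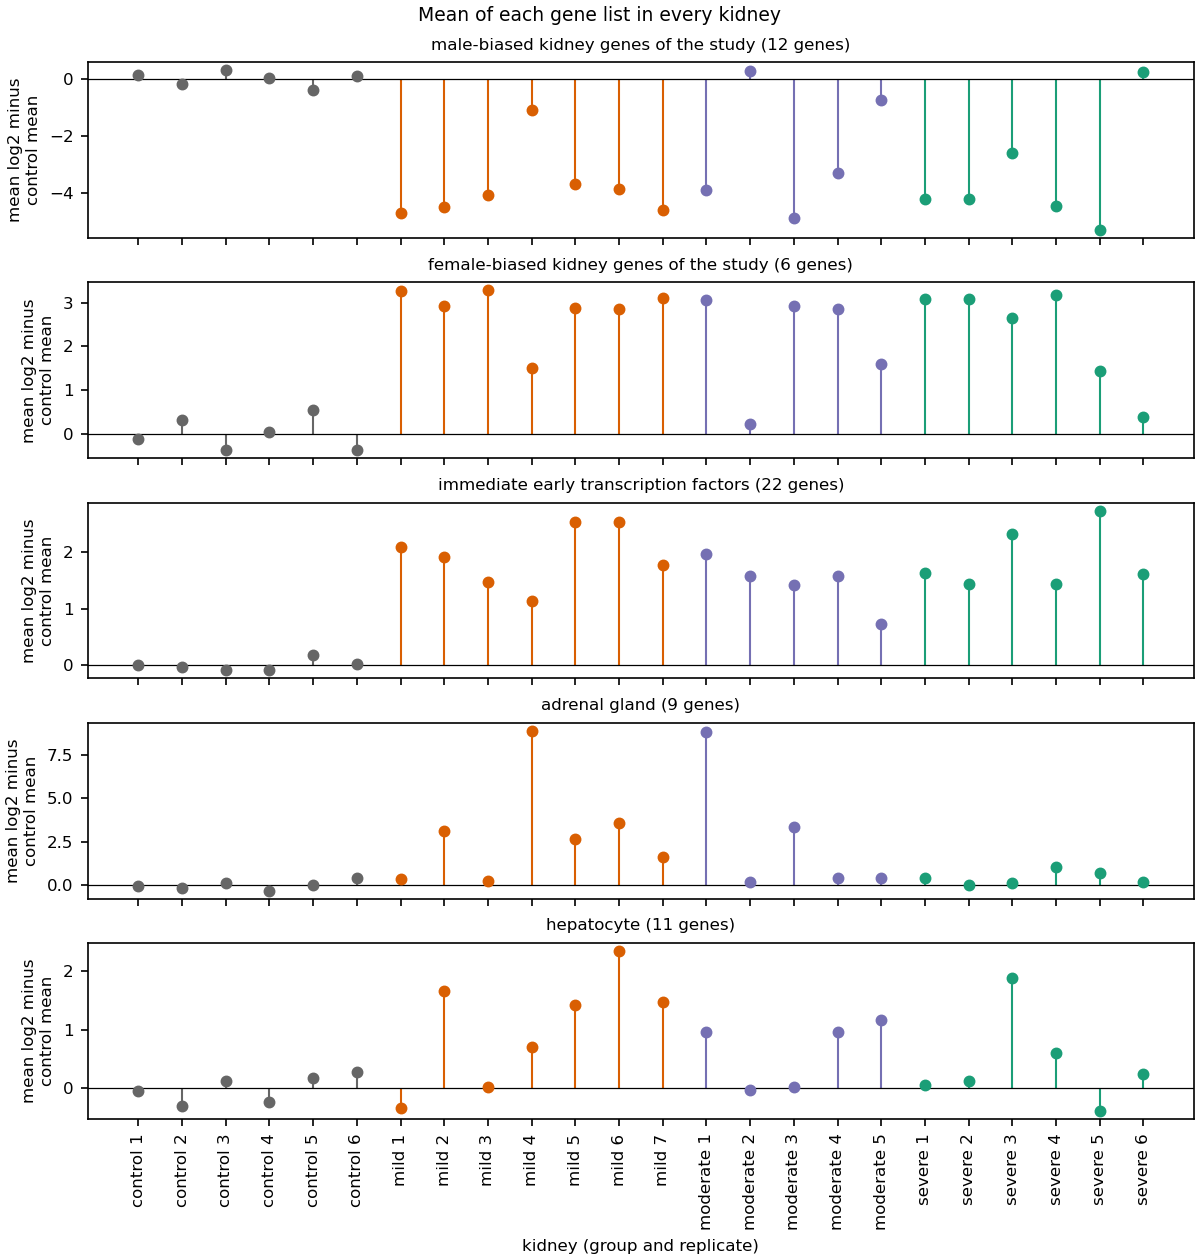
Mean log2 level of 5 gene lists in each of the 24 kidneys, relative to the mean of the controls. Male-biased genes lie far below and female-biased genes above the controls in 6 of 7 mild kidneys, mild replicate 4 lies between, immediate early factors lie above the controls in all 7, and adrenal markers peak in mild replicate 4.

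*Cyp4a12a* and *Cyp4a12b*, arachidonic acid hydroxylases induced by androgen, fell by 4.52 (adjusted p = 0.00664, limma) and 4.42 (adjusted p = 0.00789, limma). They are near-identical copies, and their probes may not tell them apart. *Cyp7b1*, an oxysterol and steroid hydroxylase, fell by 3.47 and *Cyp2j13* by 3.29. The glucuronosyltransferases *Ugt2b5* and *Ugt2b37*, members of another family of near-identical genes, fell by 3.98 and 3.59, the carboxylesterase *Ces1f* by 3.84 and *Timd2*, a ferritin receptor, by 2.19. *Slc7a13* (-2.67, adjusted p = 0.0927) and *Ugt8a* (-1.32, adjusted p = 0.0666) were not called by limma.

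Among the female-biased genes, *Prlr*, the prolactin receptor, lay at 0.56, 1.07 and 1.38 in controls and at 2.62, 4.80 and 5.02 in mild kidneys. All mild kidneys lay above all controls, and replicate 4 was the lowest. *Prlr* rose by 3.49 (SE 0.62, adjusted p = 0.00318, limma). *Abcc3*, an export pump for conjugates, rose by 3.24 (SE 0.59, adjusted p = 0.00319, limma), from -0.67, -0.26 and 0.62 to 0.64, 3.37 and 3.67. The amino acid transporter *Slc7a12* rose by 2.21, the betaine methyltransferase *Bhmt* by 1.73 and the glutathione transferase *Gsta2* by 1.40.

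Of 13 further genes known to respond to androgen in kidney, 4 fell, against 1.06% of all genes, and 0 rose, with a median of -0.87. *Cyp2d9* fell by 3.04 (adjusted p = 0.0404, limma), although mild replicate 4 had 2.48, above every control. *Slc22a7*, an organic anion transporter, fell by 2.53, *Akr1c18*, a progesterone-reducing enzyme, by 2.43 and *Cyp4b1* by 2.11.

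Of the 13 genes, 11 differences were below 0, and 9 genes were not called. *Kap*, the kidney androgen-regulated protein, lay at 8.81, 9.16 and 9.33 in controls and at 8.89, 9.07 and 9.49 in mild kidneys, a difference of -0.01 (adjusted p = 0.991, limma). The groups overlapped throughout. *Odc1*, ornithine decarboxylase, lay between 6.58 and 6.89 in controls and between 4.63 and 5.52 in mild kidneys, without overlap, but the spread shared by all 4 groups left it uncalled (-1.80, SE 1.04, adjusted p = 0.338, limma).

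Enzymes of conjugation and steroid conversion fell more often than they rose. Of 17 carboxylesterases and glucuronosyltransferases 0 rose and 8 fell, against 1.06% of all genes, with a median of -1.32. These were *Ces1g*, *Ugt2b35* and *Ugt2b36* (both -3.73), *Ugt2b38* (-3.07), *Ces2b* (-2.01), *Ugt2a3* (-1.98), *Ces2c* (-1.90) and *Ces2e* (-1.32), in addition to *Ces1f*, *Ugt2b5* and *Ugt2b37* of the male-biased list.

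Of 27 steroid-converting enzymes and receptors, 2 rose and 5 fell, and the median was 0.00. *Akr1c14*, a 3-alpha-hydroxysteroid dehydrogenase, fell by 4.18 (SE 0.98, adjusted p = 0.0155, limma), from 2.99, 3.65 and 4.02 to -2.10, -0.93 and 3.77. Replicate 4 alone overlapped with the controls. *Hsd17b2*, which inactivates estradiol and testosterone, lay between 0.09 and 0.74 in controls and between -2.21 and -0.08 in mild kidneys, and fell by 1.59 (adjusted p = 0.00547, limma). It was the 1 member called between severe and mild kidneys: against the same controls it differed by -0.21 in moderate and -0.02 in severe kidneys, and it was 1.57 higher in severe than in mild kidneys (adjusted p = 0.0151, limma). *Hsd17b11* (-2.25), *Hsd3b3* (-1.93) and *Hsd11b1* (-1.35), which regenerates active glucocorticoid, also fell. *Hsd17b14* (2.03) and *Cyp27b1* (2.01), the enzyme that activates vitamin D, rose. The glucocorticoid receptor *Nr3c1* (-0.26), the mineralocorticoid receptor *Nr3c2* (0.82, adjusted p = 0.0594, limma) and *Hsd11b2* (0.21) were not called.

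Of 22 other cytochromes P450 and epoxide hydrolases 2 rose and 1 fell. *Cyp4a14*, a fatty acid hydroxylase driven by PPAR-alpha, lay at 2.64, 3.27 and 3.87 in controls and at 5.33, 6.58 and 6.93 in mild kidneys. It rose by 3.23 (SE 0.50, adjusted p = 0.00115, limma), and replicate 4 was the mild kidney nearest to the controls. *Cyp2d10* rose by 1.44 and *Ephx2*, soluble epoxide hydrolase, fell by 1.32.

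Of 24 fatty acid oxidation and PPAR-alpha genes, 2 rose and 1 fell, with a median of 0.09. *Fabp1*, liver-type fatty acid-binding protein, rose by 2.37 (adjusted p = 0.0367, limma). *Cd36*, a fatty acid translocase, fell by 2.67 (SE 0.57, adjusted p = 0.00891, limma), from 3.32, 3.66 and 3.86 to -0.06, 0.75 and 2.59.

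Of 31 retinoid genes, 2 rose and 3 fell, with a median of 0.21. *Rdh19*, a retinol dehydrogenase, rose by 3.06 (SE 0.57, adjusted p = 0.00408, limma), from between -4.52 and -4.17 to -0.62 at most, with replicate 4 at -3.78. *Crabp1*, a retinoic acid-binding protein, rose by 1.43. *Adh1* (-1.73) and *Rdh5* (-1.13), which oxidize retinol, fell. *Cyp26b1*, which clears retinoic acid, was not called (1.94, adjusted p = 0.0661, limma).

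Glucocorticoid-responsive genes rose in 6 of 18 cases, against 1.15% of all genes, 0 fell, and the median was 0.90. *Zbtb16*, a transcriptional repressor, lay at -2.30, -0.15 and 1.72 in controls and at 2.50, 2.75 and 3.37 in mild kidneys, and rose by 3.10 (SE 0.74, adjusted p = 0.0172, limma). The control kidneys were spread widely, but none reached a mild kidney. The other called members were *Per1* (1.55), *Ddit4* (1.44) and the immediate early genes *Sgk1*, *Dusp1* and *Nfkbia*. *Tsc22d3* (0.96, adjusted p = 0.126, limma) and *Fkbp5* (0.58) were not called.

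In the main fit no marker of tubular injury was called at this grade, although the list as a whole lay higher. Of 26 markers, 0 were called by limma, with 6 higher at an unadjusted p under 0.05 and 25 differences above 0. Under the alternative settings with the same thresholds, 0 to 6 were called higher and 0 lower. The mean of the list was between -1.59 and -1.26 in controls and between -0.85 and 0.18 in mild kidneys, without overlap. Each mild kidney had 14 to 22 markers above every control and 0 to 2 below every control. Their median was 0.59 in mild kidneys, against 2.07 in moderate and 1.15 in severe kidneys relative to the same controls. *Lcn2*, the tubular injury marker NGAL, lay at -1.34, -0.67 and -0.35 in controls and at -0.87, -0.32 and 1.27 in mild kidneys. The groups overlapped, and the difference was 0.56 (SE 1.03, adjusted p = 0.834, limma), against 3.59 in moderate and 2.86 in severe kidneys. *Havcr1*, the marker KIM-1, differed by 0.40 (adjusted p = 0.876, limma), against 2.75 and 2.23. *Krt20* (1.46, adjusted p = 0.226), *Timp1* (1.25, adjusted p = 0.532) and *Spp1* (0.80, adjusted p = 0.255) were not called by limma either.

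**Figure D4:**
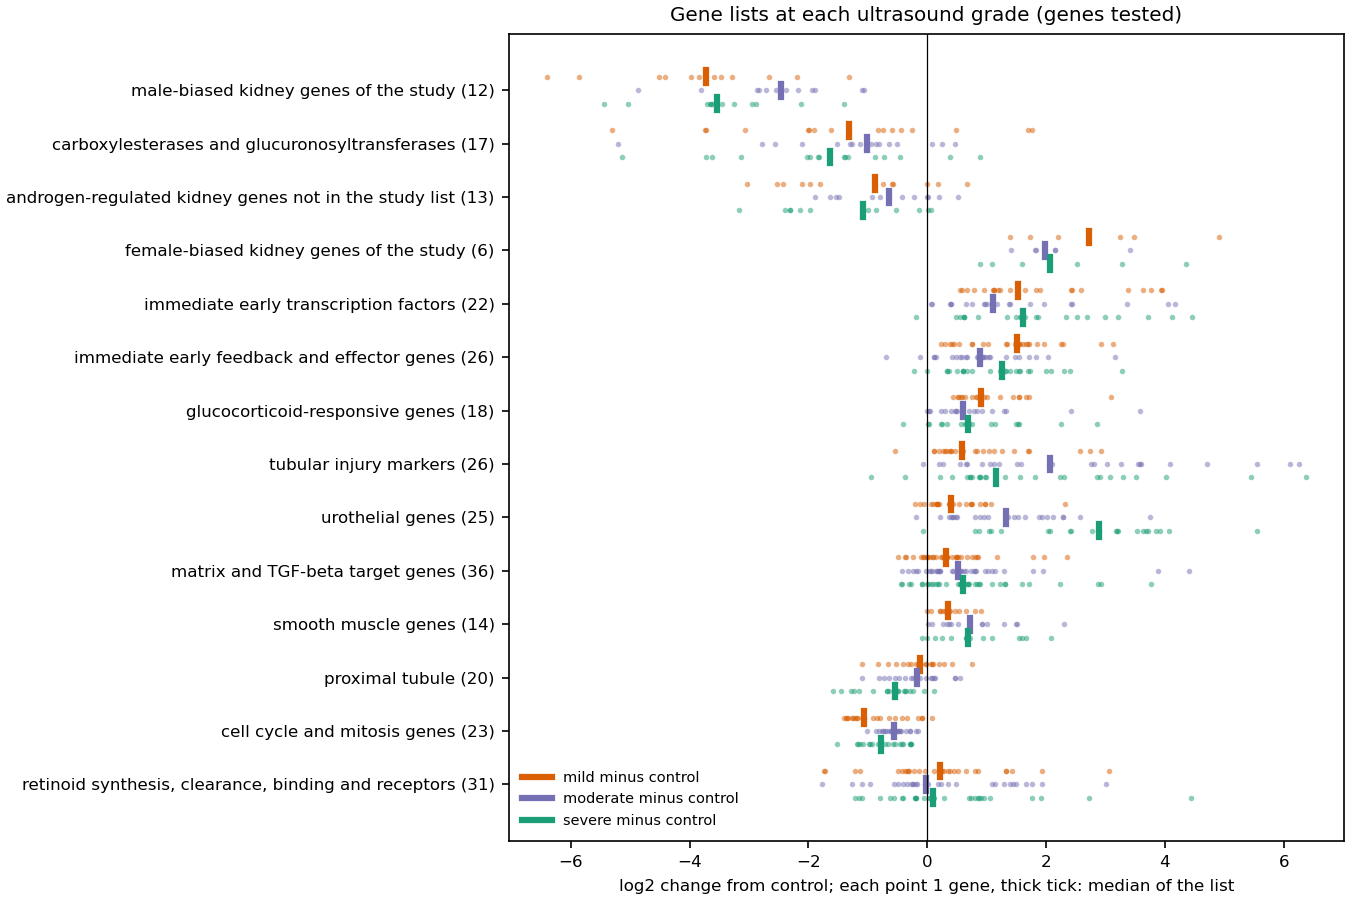
Change from control (log2) of every tested gene of 14 lists in mild, moderate and severe kidneys, with a thick tick at the median of each list. In mild kidneys the median of the male-biased genes is the lowest at -3.72 and that of the female-biased genes the highest at 2.72, while the urothelial median runs from 0.39 in mild to 2.89 in severe kidneys.

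Matrix and inflammatory genes showed few calls. Of 36 matrix and TGF-beta target genes 0 were called by limma, although 8 passed an unadjusted p under 0.05 upward and 2 downward, and the median was 0.32. Under the alternative settings with the same thresholds, 0 to 6 of them were called higher and 0 lower. *Col1a1*, the alpha-1 chain of type I collagen, differed by 0.52 (adjusted p = 0.507, limma). Of 18 leukocyte markers 0 rose and 1 fell, *Gzma* (granzyme A) by 1.78 (adjusted p = 0.00144, limma), and the pan-leukocyte gene *Ptprc* differed by 0.26. Of 22 interferon-responsive genes 1 fell, the chemokine *Cxcl9* by 1.25 (adjusted p = 0.0304, limma).

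*Cxcl1*, a neutrophil chemoattractant, was the chemokine that rose. It lay at -4.70, -3.66 and -3.17 in controls and at -2.31, -1.49 and 0.20 in mild kidneys, and rose by 2.77 (SE 0.71, adjusted p = 0.0248, limma) without overlap. The epithelial chemokine *Ccl28* fell by 2.00. Of 20 complement and acute phase genes, 2 rose, *Ahsg* and *Fetub* (1.45, adjusted p = 0.0027, limma). Both are made by hepatocytes, whose markers are given above. Complement *C3* did not overlap between groups but was not called (1.49, adjusted p = 0.148, limma).

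Urothelial genes went both ways among the mild kidneys. Of 25 tested 1 rose, *Ivl*, and the median was 0.39. In mild replicates 2, 3 and 4, 20, 21 and 18 members lay above every control, and the mean of the list was 1.22, 0.87 and 0.32 against at most -0.04 in controls. In replicates 1 and 5, 7 and 6 members lay below every control. *Ivl*, involucrin of the cornified envelope, lay at -7.23, -5.08 and -4.58 in controls and at -5.19, -2.95 and -0.9998 in mild kidneys. The groups overlapped, and the rise of 2.33 (SE 0.66, adjusted p = 0.0395, limma) was lost under most alternative settings. The uroplakins, the plaque proteins of the superficial cells, differed by 0.73 (*Upk1b*), 0.53 (*Upk2*), 0.39 (*Upk1a*) and 0.19 (*Upk3a*), and none was called.

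Most urothelial genes were higher in severe than in mild kidneys. Of all genes tested, 127 were higher in severe kidneys (0.454%) and 2 lower, and 17 of the 25 urothelial genes were among those higher. The 129 calls became 52 with the replicate number as a block and 0 when only the severe and mild kidneys were fitted. *Krt15*, a basal keratin, differed between mild and control kidneys by -0.13 and between severe and mild kidneys by 3.02 (adjusted p = 0.000397, limma). *Upk2* was higher in severe kidneys by 3.15 (adjusted p = 0.00375, limma), *Upk1b* by 3.11 (adjusted p = 0.00589, limma), *Gjb6*, connexin 30, by 3.18 (adjusted p = 0.00902, limma) and *Ivl* by 3.22 (adjusted p = 0.0203, limma). Of the 113 called genes with a symbol, 8 were also called between mild and control kidneys. The 2 genes lower in severe kidneys were *Cyp2d12* (-1.003) and *Cyp2d22* (-1.09), which were above the controls in mild kidneys by 0.65 and 0.72 without being called. Between moderate and mild kidneys 0 genes were called (0%) by limma, with 417 at an unadjusted p under 0.05 and at least 2-fold and a lowest adjusted p of 0.22.

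Smooth muscle genes, a list that also holds the regulators *Myocd*, *Srf*, *Mkl1* and *Mkl2*, were not called in any of 14 cases by limma. At an unadjusted p under 0.05, 3 were higher, and the median was 0.35. All 14 differences were above 0. *Srf*, serum response factor, was higher by 0.90 (adjusted p = 0.00284, limma), below the 2-fold minimum.

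Cell cycle and mitosis genes lay lower in mild kidneys, and their calls depended on the setting. Of 23 genes 0 were called by limma, against 12 lower with only the 2 groups compared and 8 with array weights. With the slide as a block 2 were lower, and with normexp 2. In the main fit 22 differences were below 0, with a median of -1.07, and 16 were lower at an unadjusted p under 0.05. Of the 23, 15 did not overlap between groups, against 9.17% of all genes tested. *Mki67*, the proliferation antigen, lay at 1.75, 2.26 and 2.52 in controls and at 0.58, 1.14 and 1.67 in mild kidneys. Every mild kidney lay below every control, yet the adjusted p was 0.0989 (-1.07, limma). The kinase *Plk1* (-1.41, adjusted p = 0.0668) and the spindle motor *Kif11* (-1.36, adjusted p = 0.0523) missed the limma threshold as well. The medians in moderate and severe kidneys, relative to the same controls, were -0.57 and -0.77.

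Segment markers of the nephron had few calls. Of 20 proximal tubule genes 0 were called by limma, although 1 passed an unadjusted p under 0.05 in each direction, and the median was -0.12. Of 10 podocyte, 10 endothelial and 6 renin cell markers 0 were called, with 5, 1 and 2 higher at an unadjusted p under 0.05 and none lower. In mild replicates 1, 2, 5, 6 and 7, 7 or 8 podocyte markers lay above every control, against 2 in replicate 3 and 3 in replicate 4. Below every control lay 1 in replicates 3 and 5 and 2 in replicate 4. In the collecting duct 7 to 10 of 14 markers lay above every control in replicates 1, 2, 3, 5 and 7, and 5 in replicates 4 and 6. Replicate 5 had 3 and replicate 4 had 2 below every control. Of the 14, 5 were higher at an unadjusted p under 0.05, and 1 rose, *Aqp2*, the vasopressin-regulated water channel. *Aqp2* lay at 3.61, 4.48 and 4.92 in controls and at 4.93, 5.36 and 5.97 in mild kidneys, and rose by 1.09 (SE 0.28, adjusted p = 0.0257, limma). The lowest mild kidney lay just above the highest control, and the vasopressin receptor *Avpr2* differed by 0.05. Of 16 clock genes 1 rose, *Per1*, while *Arntl* (-0.35) and *Dbp* (-0.37) were not called. Of 22 antioxidant and glutathione genes 2 rose, *Gsta1* (1.35) and *Gsta4* (1.08).

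In the list of thick limb and distal tubule genes 4 of 12 were higher at an unadjusted p under 0.05. Its mean lay above every control in 6 of 7 mild kidneys, all but replicate 4. The 1 gene of the list that rose was *Cldn16*, one of a set of neighbours. Among 16303 windows of 10 consecutive named genes, the highest mean change lay on chromosome 4 between *Slc46a2* and *Mup21* (mean change 1.60 at the mild, 3.28 at the moderate and 1.82 at the severe grade). It held a single called gene, *Slc46a2* (1.40, adjusted p = 0.0276, limma), and 9 near-identical major urinary protein genes, whose probes may not tell them apart. The next chromosome was 16, with a window from *Cldn1* to *Atp13a4* (1.26, 1.07 and 0.98) in which 6 of 10 genes were called. This window was singled out after its values were seen.

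*Cldn16*, a tight junction protein for magnesium reabsorption, lay at 0.28, 0.41 and 0.61 in controls and at 1.83, 2.43 and 2.49 in mild kidneys. The spread within each group was small beside the gap between them. *Cldn16* rose by 1.87 (SE 0.13, adjusted p = 2.36e-08, limma), with 1.92, 1.84 and 1.86 within the slides, and against the same controls it differed by 1.65 in moderate and 1.53 in severe kidneys. *Ccdc50*, an effector of epidermal growth factor receptor signalling, had the smallest adjusted p of all genes: it lay at -1.14, -0.65 and -0.52 in controls and at 0.79, 0.90 and 1.04 in mild kidneys and rose by 1.66 (SE 0.10, adjusted p = 1.41e-09, limma), with 1.68 and 1.54 at the higher grades.

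The other called neighbours rose by 1.13 or more. *Tmem207* rose by 2.42 (SE 0.29, adjusted p = 0.00013, limma), from -0.62, -0.22 and 0.11 to 2.00, 2.11 and 2.51. *Gmnc*, geminin coiled-coil, was above background in no control and was at least 6.00-fold higher in mild kidneys (adjusted p = 0.000333, limma). *Atp13a4* rose by 2.30 (SE 0.46, adjusted p = 0.00685, limma) and *Fgf12* by 1.13 (SE 0.28, adjusted p = 0.0206, limma). Between them, *Il1rap* (-0.36, adjusted p = 0.135, limma), *Mb21d2* (0.12) and *Plaat1* (-0.40) were not called. *Cldn16* and *Ccdc50* were the genes of this stretch still called with only mild replicates 1 and 3.

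**Figure D5:**
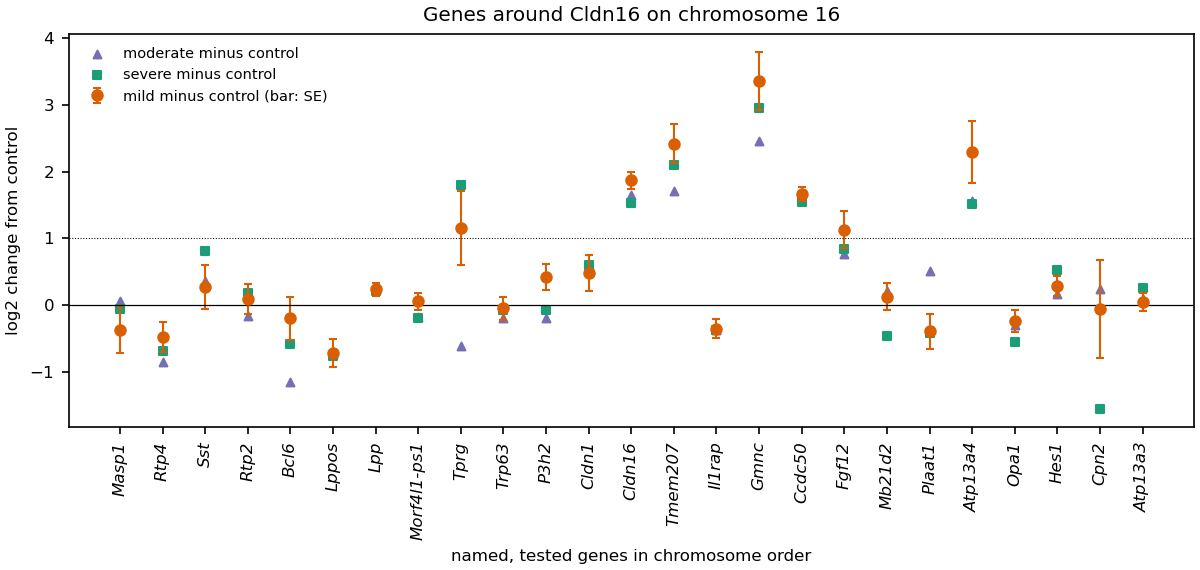
Change from control (log2) of 25 consecutive named genes around *Cldn16* on chromosome 16, in genome order and not to scale in distance, in mild kidneys (circles with SE), moderate kidneys (triangles) and severe kidneys (squares). *Cldn16*, *Tmem207*, *Gmnc*, *Ccdc50*, *Fgf12* and *Atp13a4* lie above the dotted 2-fold line in mild kidneys, and *Il1rap*, *Mb21d2* and *Plaat1* between them do not; the value of *Gmnc* is the fitted one.

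Of the called genes with a symbol, 89 were on one of the 34 lists and 348 on none. 3 of the latter were singled out after their values were seen, for a small spread or a large change. *Rasd1*, a Ras-related gene induced by glucocorticoid, rose by 2.85 (SE 0.24, adjusted p = 6.22e-07, limma), from -4.81, -3.99 and -3.75 to -1.62, -1.34 and -0.48. *Hdc*, histidine decarboxylase, which makes histamine, rose by 3.15 (SE 0.56, adjusted p = 0.0027, limma), from -3.98, -3.63 and -3.43 to -2.06, -0.25 and 0.24. *Cebpd*, a transcription factor of the acute phase response, rose by 1.98 (SE 0.27, adjusted p = 0.000429, limma), from 2.52, 3.30 and 3.55 to 4.08, 5.32 and 5.86. For all 3 every mild kidney lay above every control.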

How the data were processed

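The authors deposited one Feature Extraction file per array (Agilent Feature Extraction 10.10 per the labels), with a processed signal per spot as a background-corrected intensity, a flag for signal well above background, and a normalized table of the series, also an intensity. The authors' comparison columns were not used. From the processed intensity, spots of a probe were averaged, log2 was taken and the 75th percentile over the 59305 non-control spots of the array was subtracted; outlier spots were left out, which left 325 genes with a missing array in the fit, and no spot was saturated. Probes well above background on at least 5 of 24 arrays were kept (38838 of 55681), the brightest per gene, giving 27959 genes. Through the RefSeq table of GRCm38.p6, 26762 probes carried a symbol, and the others were counted without a name. limma 3.58.1 in R 4.3.3 was fitted to 4 groups (control, mild, moderate, severe), after a test on simulated data, and p-values were adjusted by Benjamini-Hochberg. Python 3.11, pandas 2.3.3, numpy 2.4.6 and matplotlib 3.10.9 did the rest. The number of arrays limits precision. An at-least-fold sets the brighter mean against the lowest signal of probes well above background.

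Genes named are the 10 largest rises and falls that stood above background on every array of the brighter group, members of 34 lists (593 genes, 556 tested), *Myocd*, the largest differences between grades, and the highest genome window. Members and lists were chosen with earlier results of these data known. Some members of the lists are counted but not reported here by name. Whether replicate numbers pair kidneys was not settled. Deviations of same-numbered control and mild kidneys correlated between -0.18 and 0.60, and those of other-numbered kidneys between -0.47 and 0.51. Of the 6 controls, 2 correlated best with the mild kidney of their own number. Alternatives were quantile or median scaling, normexp (on the median signal, since no mean signal was given), the authors' table, other probe filters and averages, slide or replicate blocks, array weights, other thresholds, 2-group fits and each kidney left out.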

Additional observations from a re-analysis of the deposited data

Results flagged for a closer look

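In 20 of 68 groups examined (34 named genes in 6 control and 7 mild kidneys), the highest or lowest kidney stood apart from the rest of its group. Chance gives this in about 1 in 20 independent groups. The 34 genes were measured in the same kidneys and are not independent, so the count is not a test against that rate. Mild replicate 4 was that kidney in 12 of them. It stood below the other mild kidneys for *Serpina6* (4.56, the next 7.70), *Prlr* (2.62, the next 4.64), *Abcc3* (0.64, the next 3.11), *Cyp4a14* (5.33, the next 6.31) and *Mro* (-4.57, the next -0.37). It stood above them for *Slco1a1* (0.98, the next -3.22), *Ctxn3* (-2.35, the next -6.20), *Cyp4a12a* (0.29), *Cyp4a12b* (0.96, the next -1.64), *Akr1c14* (3.77, the next -0.89), *Rhox6* (-6.22, the next -7.35) and *Ugt2b5* (2.24, the next -0.62). In each of these 12 genes the kidney lay on the side of the controls. The values of *Rhox6* were not above background in any mild kidney.

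Control replicate 5 stood apart for *Grem1* (-1.82, the next -5.57), *Atf3* (-1.77, the next -2.24), *Acsm3* (6.05, the next 6.66) and *Abcc3* (0.62, the next -0.19). Control replicate 2 did so for *Hpd* (0.69, the next 0.35) and *Ces1g* (-0.57, the next 0.15), control replicate 3 for *Egr2* (-5.77, the next -4.90) and control replicate 6 for *Myocd* (-2.29, the next -4.19). Among the 34 genes examined, *Ivl* was the one called between severe and mild kidneys, higher in severe kidneys by 3.22 (adjusted p = 0.0203, limma).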

How the results depend on the processing

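The 321 genes higher in mild kidneys became 178 when arrays were scaled by their medians, 177 with normexp, 197 with the authors' table, 614 with array weights, 842 without a fold minimum and 489 with only the 2 groups compared. The 297 lower genes became 542, 842 and 475 under the last 3 of these. With the replicate number as a block, 164 genes were higher, 114 lower and 52 differed between severe and mild kidneys, where 129 were called otherwise. Whether these numbers pair kidneys was not settled. The count between severe and mild kidneys was 0 with only those 2 groups. Between moderate and mild kidneys 38 genes were called with array weights and 1 with only the 2 groups. With the mild kidneys of high adrenal markers left out, chosen after seeing the data, the counts were 4 higher, 0 lower and 0 between severe and mild kidneys, where 439 passed an unadjusted p under 0.05 and 2-fold in the limma fit of 2 mild kidneys. Leaving out 1 kidney gave 217 to 384 higher genes, 165 to 358 lower (165 without control replicate 3, 194 without control replicate 4, 180 without mild replicate 2, 184 without mild replicate 7), 75 to 160 between severe and mild (75 without mild replicate 5) and 0 between moderate and mild. The slide as a block gave 299 and 249. *Myocd* changed sign with quantile (-0.0888) and median scaling (-0.0895), normexp (-0.0163), the authors' table (-0.0712) and array weights (-0.24), and ranged from -0.0894 without control replicate 4 to 0.416 without control replicate 6, below 0 also without control replicate 3 or 5 or mild replicate 2. None of the other 33 genes followed through the settings changed direction. Over these 34 genes and 25 settings, 772 of 841 values kept their status, called or not, and 60 lost their call. Of the 772, 16 were values of *Myocd*, which was not called. *Ivl* lost its call in 18 of its 24 settings and *Aqp2* in 9 of 25. With the mild kidneys of high adrenal markers left out, *Cldn16* and *Ccdc50* alone of the 34 genes were called. The cause of these changes was not tested.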

Other observations

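Of the remaining lists, Y-linked genes had 0 of 4 called by limma, with 1 higher at an unadjusted p under 0.05. Skeletal muscle markers had 0 of 4 called, with 1 lower at an unadjusted p under 0.05, and erythroid markers 0 of 5, with 1 higher. Adipocyte markers had 0 of 8 called and 0 at an unadjusted p under 0.05, and their mean level ran from -0.20 to 2.69 in control and from -2.30 to 4.12 in mild kidneys. Hepatocyte markers had 2 of 11 called, *Ahsg* and *Trf* (transferrin, higher by 1.19, adjusted p = 0.0144, limma).

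Among the 321 higher genes, 24 were above background in no control, and among the 297 lower genes 19 were above background in no mild kidney.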
